A study of Mus musculus with 19 samples.

Results

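Integrins and cadherins are the receptors with which cells hold on to matrix and to each other, and their genes were followed through a mouse stem cell culture and the blastoids made from it. The members were every gene symbol of the form Itga followed by letters or digits, Itgb followed by a digit up to 8, or Cdh followed by digits. This gave 49 genes of the 54352 symbols in each count table: 18 integrin alpha genes, 8 integrin beta genes and 23 cadherin genes. Of these, 31 had enough reads to be tested over all libraries, 18 in the 2D cultures alone and 27 in the blastoids alone. The 18 members that were under the filter of the joint fit had group means of at most 1.49 CPM (read counts scaled to a common library size), a level that Itgb2, the shared beta chain of leukocyte integrins, reached.

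Polyadenylated RNA was sequenced from 19 libraries in 7 groups, all from TT2 mouse embryonic stem cells, a line kept on inactivated mouse embryonic fibroblast feeders. There were 3 libraries each from blastoids on days 1, 2, 3, 4 and 5, aggregates of stem cells that resemble the blastocyst. The labels list all of them as treated with 20 nM pladienolide B (PlaB), a binder of the SF3B part of the spliceosome, for 6 h. In 2D culture there were 2 libraries treated with 20 nM PlaB for 6 h and 2 untreated control libraries, taken 54 h after seeding. No untreated blastoids and no feeder cells alone were analysed, and the labels do not tell whether replicate libraries stem from independent cultures. The p-values thus reflect the scatter of these libraries, which may be technical.

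Integrins are pairs of an alpha and a beta chain that bind laminins, collagens, fibronectin or vitronectin and connect to actin through talin, kindlin and the kinase complex around Ilk. Classical cadherins bind the same cadherin on a neighbouring cell and connect to actin through catenins. In the early mouse embryo E-cadherin, made by Cdh1, holds the cells together at compaction and in the trophectoderm, whereas Cdh2 and Cdh11 are cadherins of mesenchymal and fibroblast cells.

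Library totals ran from 2515381 to 7607021 counts. The third library of day 3 stood apart: mitochondrial genes held 13.5% of its counts, against 4.71% and 5.50% in the other two libraries of that day, and results that rest on it are given without it too. The summed level of 22 feeder markers was 410 to 747 CPM at day 1, 491 to 805 at day 2, 232 to 576 at day 3, 25.9 to 139.6 at day 4 and 44.5 to 59.2 at day 5, against 4970 to 6538 CPM in PlaB and 2123 to 2726 CPM in control 2D cultures. Of these markers 1 (Tagln) was at 0 on each blastoid day and none in 2D. Tagln held only 3 and 1 counts in PlaB and 4 and 5 in control 2D libraries, so its 0 tells little. Col1a1, a chain of fibroblast collagen, was at 0, 0 and 0.568 CPM on day 5. The 9 trophectoderm markers summed to 308 to 484 CPM at day 1, 51.0 to 75.0 at day 3 and 1046 to 2076 at day 5. In such bulk samples fewer cells of a type and less RNA per cell cannot be told apart.

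Levels are CPM scaled over all 19 libraries by the TMM method, and tests are edgeR quasi-likelihood tests with p-values adjusted over all genes by the Benjamini-Hochberg method, at a threshold of 0.05. Divided by exon length, Itgb1 had the highest mean level of the members in PlaB and control 2D cultures (287 and 209.6 CPM per kilobase) and on days 1 and 2 (36.5 and 33.1). From day 3 on Cdh1 was highest, with 46.0, 49.5 and 94.5 CPM per kilobase on days 3, 4 and 5, where Itgb1 had 31.4, 24.9 and 55.4. On day 3 the libraries spread widely, with SDs of 29.6 for Cdh1 and 9.52 for Itgb1 (n = 3), so the order on that day lies within the spread.

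Each tested member was set against Col1a1, which marks the feeders, and Krt8, a keratin of the trophectoderm, by the Spearman correlation of log2 CPM over the 19 libraries, and a member followed a marker at a correlation of at least 0.5. The points share libraries, their depth and 2 culture formats, so the values describe and no test is given. By this rule 8 members followed Col1a1, 3 followed Krt8 and 20 followed neither. Those following Col1a1 were Itga4 (0.81), Cdh11 (0.80), Cdh2 (0.79), Cdh6 (0.77), Itga2 (0.76), Itga5 (0.71), Itga11 (0.67) and Itgb3 (0.52). Itga8 lay just outside at 0.49. Those following Krt8 were Itgb5 (0.67), Itga7 (0.61) and, just inside, Itga3 (0.56). Cdh1 was not among them, with correlations of -0.82 to Col1a1 and 0.39 to Krt8, and Itga6, a laminin receptor chain, lay beside it at -0.78 and 0.34. Itga1, a collagen receptor chain, ran most against Krt8, at -0.88.

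Over the 15 blastoid libraries alone, Cdh1 had a correlation of 0.55 with Krt8 and so followed it. Itga5 passed to the Krt8 side there, at 0.53 against 0.41 for Col1a1, while Itga11 (0.34 with Col1a1, 0.10 with Krt8) and Itga3 (0.48 with Col1a1, 0.46 with Krt8) followed neither. Cdh13 (0.65), Cdh18 (0.58) and Itgb7 (0.50) followed Col1a1 over these libraries but not over all 19. Cdh11, Cdh2, Cdh6, Itga2, Itga4 and Itgb3 followed Col1a1 in both sets. Few reads stood behind the Col1a1 ranks here, since no library from day 3 onward held more than 13 Col1a1 counts. Cdh18 reached at most 8 counts per blastoid library, Cdh13 at most 14. Itga7, on the Krt8 side, reached at most 18, with 3, 4 and 3 on day 3. Counting error alone may reorder such low values, so the classes by Col1a1 over the 15 blastoid libraries and that of Itga7 are uncertain. Among members that followed a marker over all 19 libraries, Itga3, Itga5, Itga7 and Itga11 kept their class in only 3 of 5 alternative rules. Krt8 itself did not climb evenly: its levels were 101, 111 and 56.7 CPM at day 1, 8.09, 12.6 and 10.9 CPM at day 3, and 309.5, 237 and 466 CPM at day 5.

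**Figure D1:**
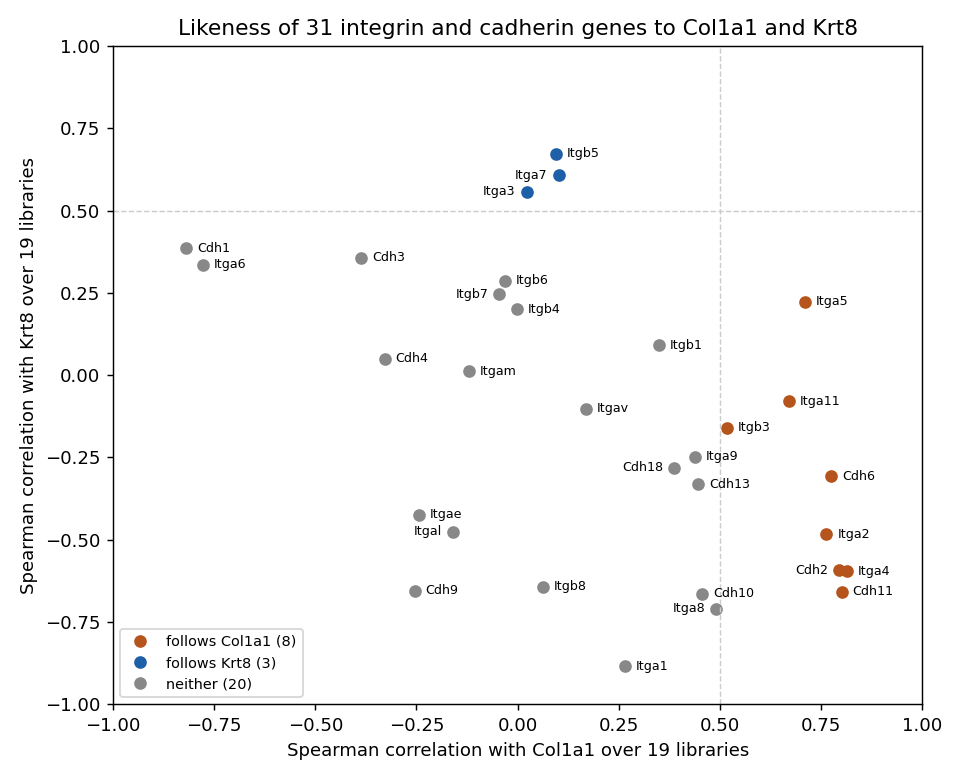
Spearman correlation of each of the 31 tested members with Col1a1 (x axis) and with Krt8 (y axis) over 19 libraries; dashed lines mark 0.5. The 8 members at the right follow Col1a1, 3 at the top follow Krt8, and Cdh1 and Itga6 lie far left at -0.82 and -0.78.

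PlaB against control in 2D culture asks what 6 h of spliceosome inhibition did to these genes. Of 18 members tested, 4 were higher and 6 lower in PlaB cultures than in controls. Over all 11183 genes tested in 2D 25.9% were higher and 25.8% lower, 51.7% in either direction, so a share of 10 in 18 is near the background. The median log2 fold change of the members was -0.34, beside 0.00 over all genes. The 4 that rose were integrins (Itga5, Itgb5, Itga11 and Itgb1). The 6 that fell were 3 cadherins (Cdh6, Cdh1 and Cdh11) and 3 integrins (Itga6, Itgav and Itgb3).

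Because these 4 integrin genes moved the same way, their promoters are shown: the 250 bases before the start of each gene, 5′ to 3′ on the gene's strand, from RefSeq on GRCm38.p6. Capitals mark the GC box GGGCGG, searched on both strands, so that CCGCCC is the same box on the other strand.
Itga5, chr15:103366792-103367041, minus strand: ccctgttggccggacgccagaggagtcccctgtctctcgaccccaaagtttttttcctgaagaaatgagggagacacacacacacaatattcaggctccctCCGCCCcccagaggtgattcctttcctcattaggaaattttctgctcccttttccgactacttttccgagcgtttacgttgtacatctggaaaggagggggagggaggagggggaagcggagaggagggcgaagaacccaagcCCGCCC
Itgb5, chr16:33829415-33829664, plus strand: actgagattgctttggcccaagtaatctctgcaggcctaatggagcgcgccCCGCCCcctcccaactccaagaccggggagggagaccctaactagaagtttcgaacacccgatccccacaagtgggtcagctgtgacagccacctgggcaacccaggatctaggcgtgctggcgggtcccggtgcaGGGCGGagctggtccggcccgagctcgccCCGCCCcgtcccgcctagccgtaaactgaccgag
Itgb1, chr8:128685404-128685653, plus strand: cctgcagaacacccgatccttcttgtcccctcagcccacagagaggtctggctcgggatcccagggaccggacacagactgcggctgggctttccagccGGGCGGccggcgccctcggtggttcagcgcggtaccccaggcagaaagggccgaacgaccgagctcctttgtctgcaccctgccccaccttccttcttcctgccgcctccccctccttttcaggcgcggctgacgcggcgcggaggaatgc
Itga11, chr9:62677605-62677854, plus strand: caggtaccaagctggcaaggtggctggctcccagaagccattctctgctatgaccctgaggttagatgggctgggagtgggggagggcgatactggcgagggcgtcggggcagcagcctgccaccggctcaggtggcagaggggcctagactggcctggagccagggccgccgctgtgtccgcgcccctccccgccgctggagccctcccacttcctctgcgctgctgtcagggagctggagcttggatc

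The GC box stood 2 times before Itga5, 3 times before Itgb5, 1 time before Itgb1 and not before Itga11. It occurs in 32.7% of all 32851 promoters of the table in the same window. Neither TATAAA (12.4% of promoters) nor TGANTCA (6.75%), both searched on both strands, was found before these 4 genes. Their GC content was 55.6%, 65.2%, 68.0% and 68.4%, with a median of 52.4% over all promoters. Of the 6 members that fell, Cdh6, with 2 boxes, and Itgav, with 0, had an entry, and 31 of the 49 members had one in all. These matches describe the letters in this window and no more.

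Itga5, whose chain with Itgb1 forms the main fibronectin receptor, moved most. It was at 125 and 182 CPM in PlaB libraries, against 9.94 and 17.8 CPM in controls, which is a log2 difference of 3.47 (SE 0.23, adjusted p = 6.4e-13). Both PlaB libraries lay above both controls, and the groups did not overlap, in either direction, for 76.3% of all genes tested in 2D. Itgb5, the beta chain of a vitronectin receptor with Itgav, had 28.5 and 34.4 CPM in PlaB libraries, against 6.37 and 7.02 CPM in controls (log2 fold change 2.23, SE 0.32, adjusted p = 3.3e-07). Itga11, a collagen receptor chain of fibroblasts, had 18.1 and 9.09 CPM in PlaB libraries and 2.80 and 2.16 CPM in controls (2.43, SE 0.51, adjusted p = 1.3e-04). It passed the filter of the 2D fit only through the PlaB libraries, so this p-value is not read as support. Itgb1, the beta chain shared by the receptors of laminin, collagen and fibronectin, changed least of these on the log2 scale from the highest level: 1039.5 and 1300.3 CPM in PlaB libraries, against 794 and 917 CPM in controls (0.45, SE 0.13, adjusted p = 0.0034).

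Among the cadherins Cdh6, a cadherin first known from kidney, fell most, with 17.3 and 22.9 CPM in PlaB libraries and 62.2 and 61.0 CPM in controls (log2 fold change -1.61, SE 0.23, adjusted p = 3.0e-07). Cdh1 was at 57.9 and 58.1 CPM in PlaB libraries, against 107 and 77.2 CPM in controls (-0.67, SE 0.18, adjusted p = 0.0026). The controls themselves differed by more than the PlaB libraries did, and without the first control library the Cdh1 call was lost (-0.44, adjusted p = 0.14). Cdh11 had 162 and 170.3 CPM in PlaB libraries and 221 and 232 CPM in controls (-0.45, SE 0.14, adjusted p = 0.0065). Cdh2 had 25.9 and 23.7 CPM in PlaB libraries beside 22.9 and 20.5 CPM in controls and did not pass (0.19, SE 0.27, adjusted p = 0.58).

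Of the other integrins that fell, Itga6 had 77.8 and 68.4 CPM in PlaB libraries, against 126 and 123 CPM in controls (log2 fold change -0.77, SE 0.16, adjusted p = 1.4e-04). Itgav, the alpha chain of the vitronectin receptors, had 241 and 230.3 CPM in PlaB libraries and 302 and 308 CPM in controls (-0.37, SE 0.13, adjusted p = 0.018). Itgb3, a beta chain of vitronectin receptors, had 6.91 and 13.4 CPM in PlaB libraries and 14.0 and 24.0 CPM in controls (-0.89, SE 0.36, adjusted p = 0.037). Of the beta chains that pair with Itgav, Itgb5 was thus higher and Itgb3 lower. Itga2, Itga1, Itga8, Itgae, Itga4, Itga9 and Cdh10 did not pass either, with fold changes between -1.37 (Cdh10) and 1.06 (Itga8) on the log2 scale.

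Itga5, Itgb5, Itga11, Cdh6 and Itga6 kept their calls under every alternative setting run. With the GC trend described next removed, 3 of them were over 1.5 times smaller as linear folds. Their log2 fold changes were then 2.42 for Itga5, 1.196 for Itgb5 and 1.55 for Itga11. The Itgb1 call was lost without the first control library (0.30) or the second PlaB library, the Itgav call without the second PlaB library, and the Itgb3 call without the second control library, without the first PlaB library and with DESeq2. The median level of the GC-richest genes (upper quartile) minus that of the GC-poorest (lower quartile), each centred on the mean of all libraries, was 0.18 on the log2 scale in PlaB libraries and -1.02 in controls. With this trend removed Cdh11 (-0.16, adjusted p = 0.35) and Itgav (0.00, adjusted p = 0.99) no longer passed. Feeder markers differed as well: 17 of 21 feeder markers tested were higher in PlaB libraries and 0 lower, with a median log2 fold change of 0.92. Of 5 trophectoderm markers tested 3 were higher and 1 lower, and of 5 stem cell markers 0 were higher and 3 lower. Mitochondrial genes held 9.14% and 9.38% of counts in PlaB libraries, against 5.74% and 6.18% in controls. The part of these in the results was not tested. Col1a1 was at 84.7 and 87.7 CPM in PlaB libraries, against 20.4 and 30.8 CPM in controls.

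**Figure D2:**
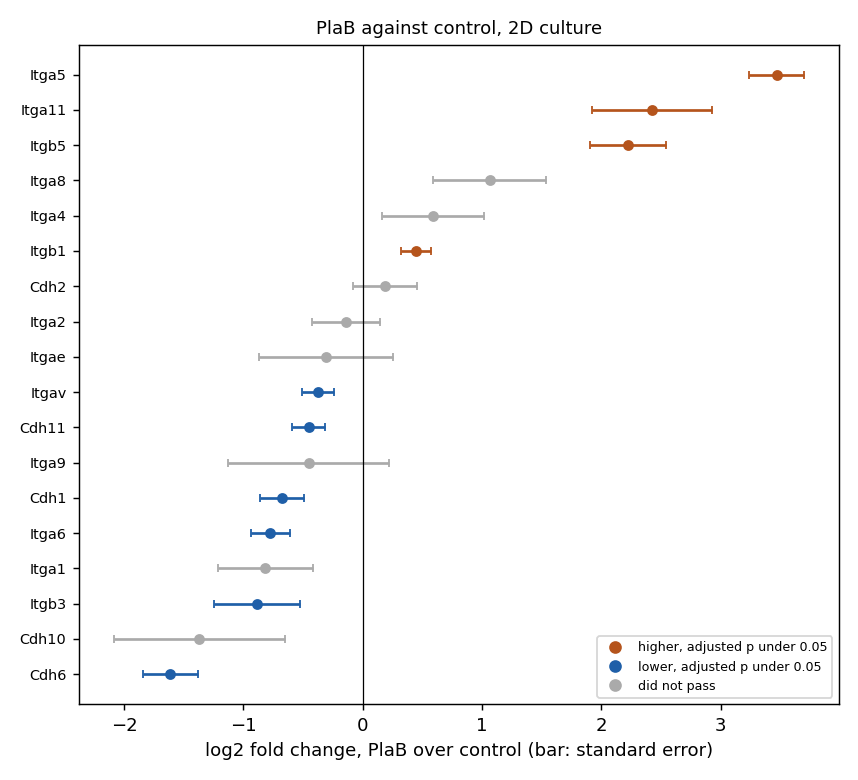
Log2 fold change of PlaB over control 2D cultures (2 libraries each) for the 18 tested members, with standard errors as bars. Itga5 stands highest at 3.47 and Cdh6 lowest at -1.61; grey members did not pass.

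The partners of these receptors changed in both directions in PlaB cultures. Of 15 integrin adaptors tested 6 were higher and 1 lower, with Parva, an actin-binding partner of Ilk, up by 1.23 (SE 0.17, adjusted p = 1.5e-07) and Fermt2, a kindlin, changing by -0.97 (SE 0.14, adjusted p = 3.2e-07) on the log2 scale. Rsu1 and Cd9 were higher too. Of 16 integrin ligands 6 were higher and 2 lower: Lama4, Spp1 and Tnc rose, and Thbs1 fell. Of 9 cadherin partners 2 were higher, the actin linker Vcl and the adhesion molecule Epcam, and 3 lower, Nectin3, Afdn and Ctnnd1. The Cdh1 repressors Zeb1 (-0.98) and Zeb2 (-0.84) fell, none of the 5 tested rose, and Cdh1 itself was lower as well. Ilk was listed at 0 in all 19 libraries. Since the annotation and strand setting used for counting are not stated, missing expression and missed counting cannot be told apart.

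Day 1 of blastoid culture against PlaB-treated 2D cells compares the 3D aggregates with the treated cells on feeders, and here the day, the culture format and the count table cannot be told apart. Of 31 members tested 1 was higher and 13 were lower on day 1. Over all 16304 genes 21.9% were higher and 17.0% lower, 38.9% in either direction. The members' median log2 fold change was -0.84, the same with Cdh9 and Itgb6, each at 0 in a group, set to their bounds, beside 0.14 over all genes. Of the 8 members that followed Col1a1, 7 were lower, while 19 of 21 feeder markers were lower and 0 higher; the rule that formed this class used these libraries, so nothing is read from that count.

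Both chains of the fibronectin receptor fell, with the smallest adjusted p-values of the members. Itga5 was at 8.11, 14.8 and 5.55 CPM on day 1, against 125 and 182 CPM in PlaB 2D cultures (log2 fold change -4.05, SE 0.37, adjusted p = 8.6e-09), and -4.76 with the GC trend removed. Itgb1 was at 178, 177 and 92.0 CPM on day 1, against 1039.5 and 1300.3 CPM in PlaB cultures (-2.97, SE 0.28, adjusted p = 1.3e-08). Its ligand fibronectin, Fn1, was lower with them (-2.38, SE 0.27, adjusted p = 3.5e-07), as were 9 of 17 integrin ligands, with 1 higher (Lama5, 1.83). Itgav had 38.9, 39.0 and 44.4 CPM on day 1, against 241 and 230.3 CPM in PlaB cultures (-2.53, SE 0.42, adjusted p = 1.0e-04).

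Itga11 fell to 0.887, 0.235 and 0.139 CPM on day 1, against 18.1 and 9.09 CPM in PlaB cultures (-4.85, SE 0.87, adjusted p = 1.1e-04), with -6.10 without the first library of day 1 and -4.24 without the first PlaB library. Itga2, another collagen receptor chain, had 6.21, 5.17 and 0.694 CPM on day 1 and 18.6 and 20.5 CPM in PlaB cultures (-2.29, SE 0.59, adjusted p = 0.0037). Itga8, the nephronectin receptor chain, was at 1.65, 2.82 and 1.80 CPM on day 1, against 6.91 and 13.4 CPM in PlaB cultures (-2.32, SE 0.53, adjusted p = 0.0012). All day 1 libraries of these genes lay under both PlaB libraries, and the groups did not overlap, in either direction, for 62.5% of all genes tested in this comparison.

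Each cadherin that changed fell here: Cdh11 to 40.2, 65.6 and 29.4 CPM on day 1, against 162 and 170.3 CPM in PlaB cultures (-1.89, SE 0.41, adjusted p = 0.0011). Cdh6 was at 7.60, 3.29 and 1.53 CPM on day 1, against 17.3 and 22.9 CPM in PlaB cultures (-2.24, SE 0.43, adjusted p = 2.2e-04), with -3.14 without the first library of day 1. Cdh2 was at 9.12, 9.64 and 6.94 CPM, against 25.9 and 23.7 CPM (-1.54, SE 0.38, adjusted p = 0.0022). Cdh1 did not pass, with 71.1, 84.1 and 60.5 CPM on day 1 beside 57.9 and 58.1 CPM in PlaB cultures (0.31, SE 0.34, adjusted p = 0.50). Itga6 did not pass either (0.56, SE 0.25, adjusted p = 0.078).

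Itga3, a laminin receptor chain of epithelia, was the member that was higher, with 16.3, 17.4 and 7.49 CPM on day 1, against 3.02 and 1.58 CPM in PlaB cultures (log2 fold change 2.57, SE 0.80, adjusted p = 0.014). The call was lost without either PlaB library and with the GC trend removed (1.81 at the lowest). Itgb5 was lower (-1.17, SE 0.34, adjusted p = 0.0083), but not without the second PlaB library or with scaling by total counts. Itga4, a receptor chain for fibronectin and VCAM1, was lower (-1.84, SE 0.55, adjusted p = 0.0095), but not without either PlaB library, and Itga8 lost its call without the second. Itgam, the alpha chain of the myeloid integrin Mac-1, held 2 counts on day 1 and 15 in PlaB cultures, a ratio of 30.0 lower with a 95% counting interval of 6.97 to 270.0. Itgb6, an epithelial beta chain that pairs with Itgav, held 0 counts on day 1 and 10 in PlaB cultures, at least 13.3-fold lower where the group is set to a floor of 3 counts. Such intervals and floors cover counting error only.

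Day 5 against day 1 spans the blastoid culture, and Cdh1 was higher and Cdh11 lower at its end. Of 27 members tested, 6 were higher and 8 lower on day 5, beside 25.5% higher and 25.5% lower (51.0% in either direction) of all 15121 genes. The members' median log2 fold change was -0.65, the same with Itgb6 at its bound, and that of all genes -0.02. The GC-rich minus GC-poor difference was 0.97 on day 1 and -0.29 on day 5 on the log2 scale. The higher ones were Cdh1, Itga6, Itgav, Itgb1, Itgb6 and Itgam. Of these, Itgb6 and Itgam passed the filter of the blastoid fit only through day 5, so their calls are not read as support. The lower ones were Cdh11, Cdh2, Itga1, Itga2, Itga3, Itga4, Itga5 and Itgb3.

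Cdh1 had 71.1, 84.1 and 60.5 CPM at day 1, 70.5, 67.2 and 75.1 at day 2, 109, 158 and 365 at day 3, 278, 219.9 and 182 at day 4, and 504, 374 and 419 at day 5. All day 5 libraries lay above every library of the other days. The log2 fold change of day 5 over day 1 was 2.65 (SE 0.33, adjusted p = 2.5e-06) and lay between 2.31 and 2.85 in 12 alternative settings. Its first step came on day 3 against day 2, with 1.60 (SE 0.32, adjusted p = 0.0020), and 0.92 (adjusted p = 0.0052) without the third library of day 3. Day 5 against day 4 gave 0.96 (SE 0.31, adjusted p = 0.026), a call that was lost without the second or the third library of day 4 or the first of day 5, and with scaling by total counts.

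Cdh11 fell. It had 40.2, 65.6 and 29.4 CPM at day 1, 67.3, 55.0 and 67.6 at day 2, 23.9, 32.7 and 79.3 at day 3, 3.87, 0.806 and 3.28 at day 4, and 5.19, 2.35 and 2.84 at day 5. Day 4 against day 3 gave -4.10 on the log2 scale (SE 0.49, adjusted p = 8.3e-06), and day 5 against day 1 gave -3.61 (SE 0.49, adjusted p = 6.9e-06). Both calls held in all 12 alternative settings, and day 4 against day 3 was -3.41 without the third library of day 3. Cdh2 fell in the same step (-1.97, SE 0.41, adjusted p = 0.0015), with 2.06, 3.36 and 2.85 CPM on day 4 and 7.26, 6.76 and 18.4 CPM on day 3, and was -1.34 (adjusted p = 0.011) without the third library of day 3. On day 5 Cdh2 was at 1.66, 3.92 and 4.17 CPM, against 9.12, 9.64 and 6.94 CPM on day 1 (-1.33, SE 0.42, adjusted p = 0.012), a call lost without the first library of day 5. Feeder markers fell in the same step, 14 of 21 with 0 higher, and their part in the result was not tested. Cdh6, low from day 1 on, had a lower mean on day 5 but did not pass (1.87, 1.83 and 1.52 CPM, against 7.60, 3.29 and 1.53 CPM on day 1, adjusted p = 0.066).

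**Figure D3:**
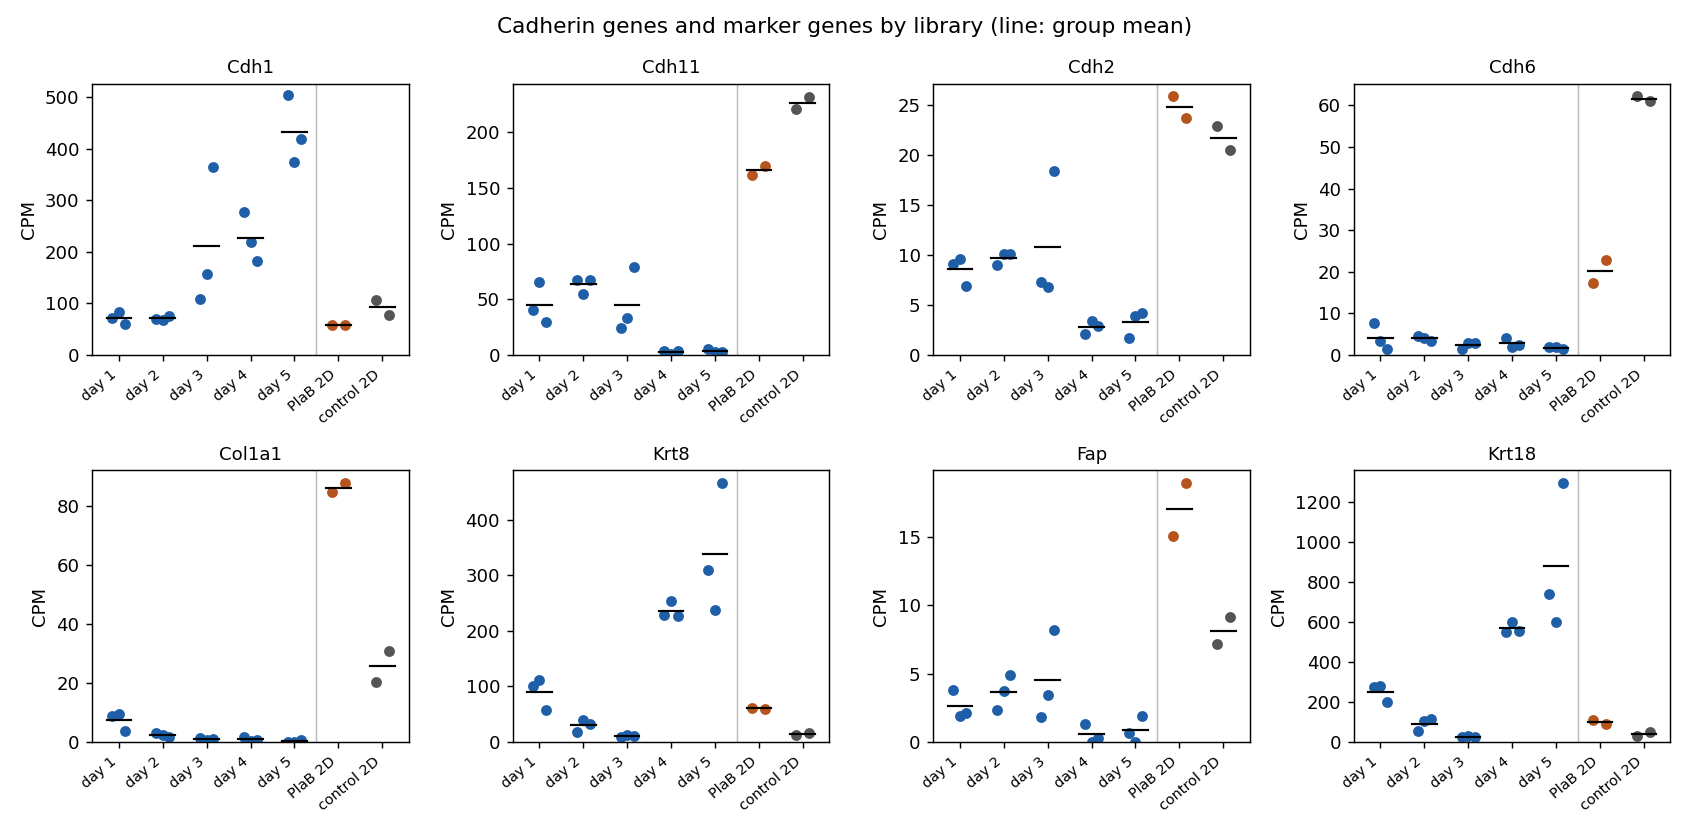
Level in CPM of 4 cadherins (upper row) and of the markers Col1a1, Krt8, Fap and Krt18 (lower row) in each library of the 7 groups, with lines at group means. Cdh1 is highest on day 5 (374 to 504 CPM), whereas Cdh11 is highest in 2D controls (221 and 232 CPM) and under 6 CPM on days 4 and 5.

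Repressors of Cdh1 went down over these days. All 5 tested were lower on day 5 than on day 1, with Snai2 changing by -5.01 (SE 0.32, adjusted p = 7.9e-09), Zeb2 by -3.05, Twist1 by -3.49 and Zeb1 by -1.83 on the log2 scale. Twist2 is also in the feeder list. On day 4, 4 of 5 were lower than on day 3. On day 5 against day 1, 18 of 21 feeder markers were lower and 0 higher, and 7 of 7 trophectoderm markers tested were higher. Cdx2 and Elf5, of the 9 in that list, had too few reads to be tested. Cdx2 held 9, 1 and 6 counts on day 1 and 1, 0 and 0 on day 5. Elf5 held 4, 3 and 1 counts on day 1 and 4, 2 and 6 on day 5. The part of these marker changes in the results was not tested. Of 11 cadherin partners 3 were higher on day 5 and 1 lower: Afdn, which links nectins to actin, rose by 1.46 (SE 0.17, adjusted p = 1.3e-06), Ctnnd1, p120 catenin, by 2.10 (SE 0.28, adjusted p = 6.2e-06) and Ctnna1, alpha-catenin, by 1.26 (SE 0.21, adjusted p = 4.7e-05), and plakoglobin, Jup, fell by 1.63 (adjusted p = 2.4e-04). The other 7 partners, Ctnnb1 among them, did not pass.

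Itga6 and Itgav were higher on day 5 than on day 1. Itga6 had 102, 113 and 107 CPM at day 1, 103, 104 and 103 at day 2, 114, 148 and 232 at day 3, 175, 171 and 127 at day 4, and 278, 228 and 242 at day 5. The log2 fold change of day 5 over day 1 was 1.28 (SE 0.23, adjusted p = 1.4e-04), with no overlap between the groups, which in either direction held for 58.2% of all genes tested. The steps of day 3 over day 2 (0.70) and day 5 over day 4 (0.70) were smaller, and without the third library of day 3 the step of day 3 over day 2 was 0.35 (adjusted p = 0.21). That call was also lost without any 1 library of day 2, with the replicate number as a block, with total counts and without a filter. The call of day 5 over day 4 was lost without the second or the third library of day 4 or the first or the second of day 5, with total counts and without a filter. Itgav had 38.9, 39.0 and 44.4 CPM at day 1, 57.9, 44.8 and 35.9 at day 2, 48.4, 64.1 and 202 at day 3, 77.3, 62.2 and 39.8 at day 4, and 135, 114 and 69.0 at day 5 (day 5 over day 1 1.45, SE 0.41, adjusted p = 0.0064). Its call for day 3 over day 2 (1.21, adjusted p = 0.034) rested on the third library of day 3, without which it was 0.30 (adjusted p = 0.50), and was also lost without the second or the third library of day 2, with the replicate block and with the GC trend removed (0.92, adjusted p = 0.081).

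Itgb1 had its lowest mean on day 4 and its highest of the blastoid days on day 5: 178, 177 and 92.0 CPM at day 1, 106, 158 and 141 at day 2, 104, 108 and 173 at day 3, 91.1, 119 and 94.8 at day 4, and 229, 221 and 227 at day 5. The step of day 5 over day 4 was 1.19 (SE 0.26, adjusted p = 0.0021) and held in all 12 alternative settings. Day 5 over day 1 was 0.67 (SE 0.26, adjusted p = 0.036), a call lost in 9 of 12 settings, at the lowest with 0.31. Among them were total counts, a removed GC trend, and leaving out the third library of day 1 or any library of day 5. On no blastoid day did Itgb1 reach the 2D level. Laminin and collagen IV genes, ligands of these chains, were among the 7 of 17 ligands that were higher on day 5, with Lamb1 at 2.05 (SE 0.31, adjusted p = 1.8e-05) and Col4a2 at 1.76 (SE 0.27, adjusted p = 2.5e-05), while 4 were lower, with Tnc at -6.95 (SE 0.82) and Spp1 at -3.01 (SE 0.44). Of 18 adaptors 6 were higher, led by the tetraspanins Cd9 (1.27) and Cd151 (1.66) and by Parva (1.09), and 3 lower, with Tln2 at -1.07.

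**Figure D4:**
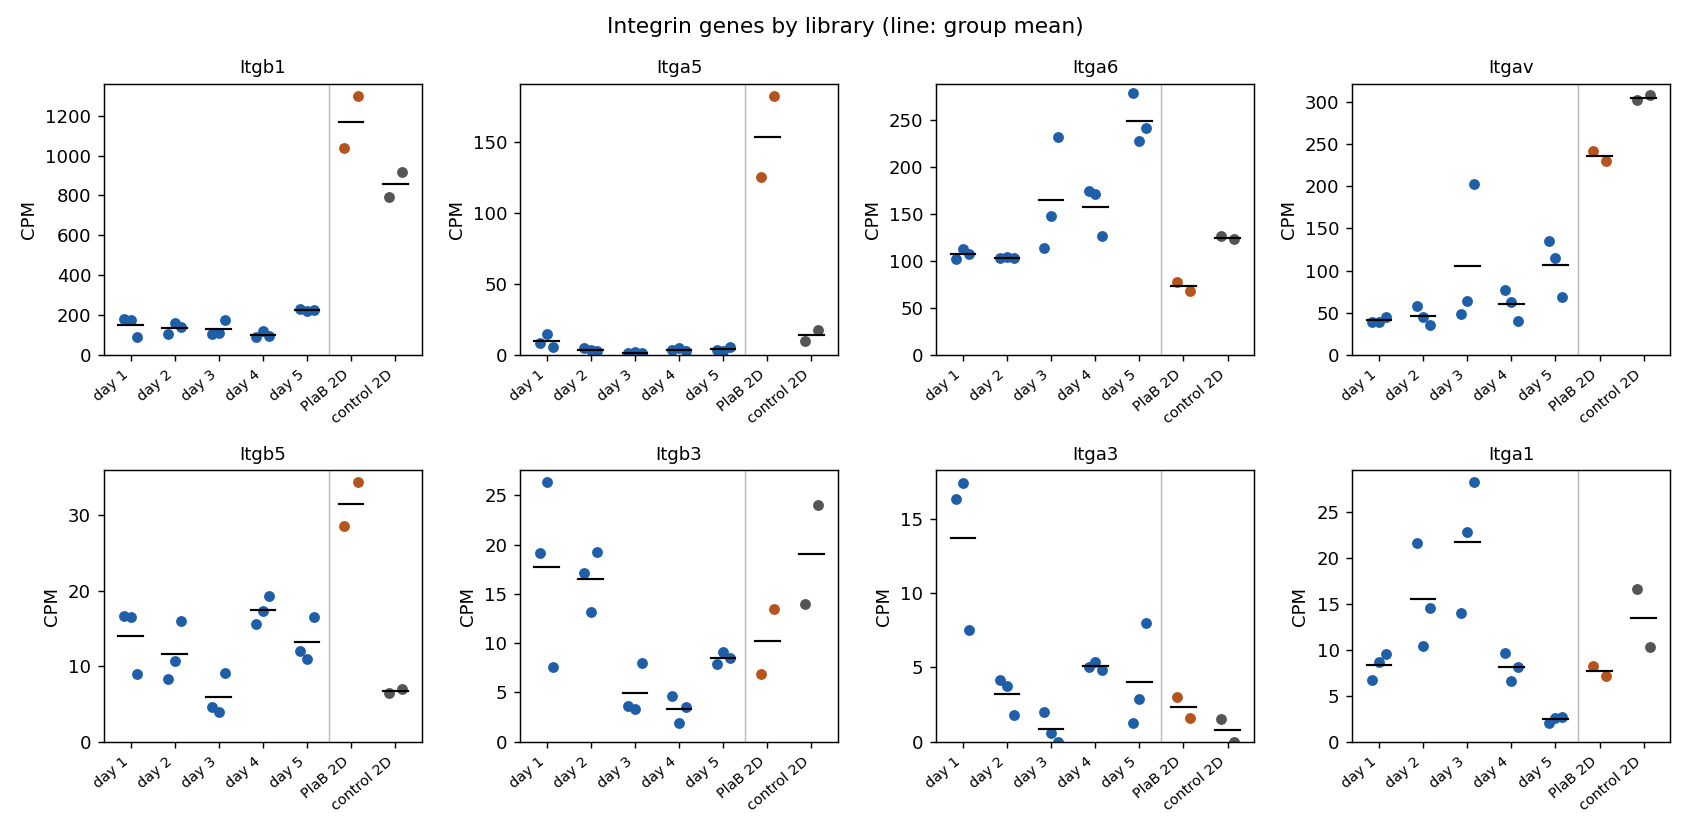
Level in CPM of 8 integrin genes in each library of the 7 groups, with lines at group means. Itgb1 and Itga5 are highest in PlaB 2D libraries (up to 1300.3 and 182 CPM), Itga6 on day 5 (228 to 278 CPM) and Itga3 on day 1.

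Itga1 and Itga2, chains of collagen receptors, were lower on day 5 than on day 1. Itga1 had 6.71, 8.70 and 9.57 CPM at day 1, 21.6, 10.4 and 14.5 at day 2, 14.0, 22.8 and 28.2 at day 3, 9.67, 6.58 and 8.13 at day 4, and 2.08, 2.61 and 2.65 at day 5. It was thus highest on days 2 and 3, where Krt8 was low, and the falls of day 4 against day 3 (-1.42, SE 0.31, adjusted p = 0.0021) and day 5 against day 4 (-1.69, SE 0.37, adjusted p = 0.0019) held in every setting run. Its exons overlap those of Gm49395 on the same strand, so its counts are uncertain. Itga2 had 0.830, 1.05 and 0 CPM on day 5, against 6.21, 5.17 and 0.694 CPM on day 1 (-2.65, SE 0.86, adjusted p = 0.014), with overlapping libraries. That call was lost without the first library of day 1 (adjusted p = 0.071 at the highest) or the third of day 5.

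Itga3 and Itgb5 had their lowest blastoid means on day 3, as Krt8 did, but both were picked out by their likeness to Krt8. Itga7, the third of that class, had its lowest on day 2 (0.545 CPM, beside 0.587 on day 3). Itga3 had 16.3, 17.4 and 7.49 CPM at day 1, 4.15, 3.74 and 1.78 at day 2, 1.98, 0.601 and 0 at day 3, 5.03, 5.37 and 4.85 at day 4, and 1.25, 2.87 and 7.96 at day 5. The fall of day 2 against day 1 (-2.06, SE 0.56, adjusted p = 0.029) and the rise of day 4 over day 3 (2.45, SE 0.67, adjusted p = 0.011) passed, and on day 5 the libraries overlapped those of day 1 (-1.67, SE 0.56, adjusted p = 0.018). The day 2 call was lost without the first or the second library of day 1 or any library of day 2, with the replicate number as a block and with the GC trend removed. The day 5 call was lost without the first or the second library of day 1 or of day 5 and with the GC trend removed, and was -2.67 without the third of day 5. The rise on day 4 was 3.79 without the first library of day 3. Itgb5 had 16.6, 16.5 and 9.02 CPM at day 1, 8.29, 10.7 and 16.0 at day 2, 4.62, 3.90 and 9.10 at day 3, 15.6, 17.3 and 19.2 at day 4, and 12.0, 11.0 and 16.5 at day 5. Its fall of day 3 against day 2 (-0.99, adjusted p = 0.039) was lost without the second or the third library of day 2 or the first or the second of day 3, and with the GC trend removed (-0.39, adjusted p = 0.43). Its rise of day 4 over day 3 was 1.58 (SE 0.34, adjusted p = 0.0022), and day 5 against day 1 was -0.02 (SE 0.33, adjusted p = 0.97). The GC-rich minus GC-poor difference was 0.51 on day 4 and -0.74 on day 3 on the log2 scale. With that trend removed neither rise passed, at 1.59 (adjusted p = 0.068) for Itga3 and 0.69 (adjusted p = 0.16) for Itgb5.

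Itgb3 was lower from day 3 on: 19.1, 26.3 and 7.63 CPM at day 1, 17.1, 13.2 and 19.3 at day 2, 3.63, 3.30 and 7.99 at day 3, 4.64, 1.88 and 3.56 at day 4, and 7.89, 9.15 and 8.53 at day 5. Day 3 against day 2 was -1.73 (SE 0.42, adjusted p = 0.0057), which held in every setting run, and day 5 over day 4 was 1.37 (SE 0.44, adjusted p = 0.023). The fall of day 5 against day 1 (-0.97, adjusted p = 0.049) was lost in 7 of 12 settings. It was lost without the first or the second library of day 1 or any library of day 5. The replicate block and the removed GC trend lost it too. The rise on day 5 was lost without the second or the third library of day 4 or the second of day 5, and with total counts. Itga5 had 3.32, 2.87 and 5.68 CPM on day 5, against 8.11, 14.8 and 5.55 CPM on day 1 (-1.16, SE 0.43, adjusted p = 0.029), and that call was lost in 5 of 12 settings. It was lost without the second library of day 1 and without the first or second of day 5. The replicate block and the removed GC trend lost it too, and the weakest value of all settings was -0.29. On days 2, 3 and 4 Itga5 lay between 1.11 and 4.97 CPM. Itga11 was at or under 1.04 CPM in every blastoid library.

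Itgae and Itga8 had their highest blastoid means on day 3. Itgae, the chain that binds E-cadherin on T cells of epithelia, had 6.21, 8.46 and 13.3 CPM at day 1, 15.4, 16.1 and 12.1 at day 2, 40.6, 27.9 and 12.4 at day 3, 14.6, 11.0 and 8.70 at day 4, and 4.36, 5.23 and 7.39 at day 5. Day 4 against day 3 was -1.25 (SE 0.35, adjusted p = 0.012), with overlapping libraries, and was lost without the first library of day 3 or the third of day 4. In 2D, Itgae was at 3.89 and 5.14 CPM in PlaB libraries and 7.65 and 3.51 CPM in controls. Itgb7, its beta chain, had 0.495, 1.65 and 0.666 CPM on day 3, against 5.64, 3.33 and 4.30 CPM on day 2 (-2.15, SE 0.69, adjusted p = 0.026), so the chains of this pair did not have their highest means on the same day. The Itgb7 call was lost without the third library of day 3 (adjusted p = 0.067), the first or the third of day 2 or the first of day 3, and with the GC trend removed (-1.60, adjusted p = 0.070).

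Itga8 had 1.65, 2.82 and 1.80 CPM at day 1, 6.14, 7.21 and 4.74 at day 2, 5.61, 7.51 and 11.1 at day 3, 2.71, 0.537 and 1.57 at day 4, and 1.87, 0.523 and 1.33 at day 5. Its rise on day 2 (1.58, SE 0.48, adjusted p = 0.049) was lost in 10 of 12 settings, among them without any 1 library of days 1 and 2, and its fall on day 4 against day 3 (-2.32, SE 0.48, adjusted p = 0.0015) in 0, with -2.93 without the first library of day 4. Cdh9 had its highest mean on day 3, with 2.81, 4.66 and 9.55 CPM, against 0.995, 1.39 and 1.48 CPM on day 2 (2.13, SE 0.68, adjusted p = 0.027), a call lost without the third library of day 3 (adjusted p = 0.16) or any 1 library of day 2, and with the GC trend removed (1.63, adjusted p = 0.067). Its fall to 0.644, 1.07 and 0.143 CPM on day 4 (-3.14, SE 0.73, adjusted p = 0.0038) held in all settings, with -2.54 without the third library of day 3 and -3.75 without the second of day 4. Cdh9 passed the filter of the blastoid fit only through day 3, where it was highest, so these p-values are not read as support. Exons of Itga8 and Cdh9 overlap other genes (E030013I19Rik and Gm49127), as do those of Itgav (Gm13684), Itga4 (Cerkl) and Itga7 (Mettl7b), so the counts of all 5 are uncertain.

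By steps, 1 member was higher and 1 lower on day 2 against day 1, where 1.69% of all genes were higher and 5.27% lower (6.96% in either direction). On day 3 against day 2 there were 4 higher and 3 lower (12.0% and 13.5% of all genes, 25.6% in all), on day 4 against day 3 2 higher and 9 lower (15.6% and 12.3%, 27.9% in all), and on day 5 against day 4 6 higher and 2 lower (14.1% and 14.5%, 28.6% in all). Those 6 include Itgb6 and Itgam, which passed the filter only through day 5. Itga4 was lower on day 4 than on day 3 (-1.76, adjusted p = 0.049, lost in 8 of 12 settings, among them without any 1 library of day 3 and without the second or the third of day 4) and on day 5 than on day 1 (-1.97, SE 0.68, adjusted p = 0.021, lost without the first library of day 1 or the third of day 5). Cdh4, R-cadherin, was lower on day 5 than on day 4 (-2.09, adjusted p = 0.048, lost in 8 of 12 settings, among them without the first or the third library of day 4 and without any 1 library of day 5). Itga2 was lower on day 4 than on day 3 too (-2.86, SE 0.97, adjusted p = 0.033), but not without the third library of day 3 or the first or the third of day 4, or with the GC trend removed, and -3.51 without the second of day 4. Itgam held 1 count on day 4 and 16 on day 3 (adjusted p = 0.015), a call lost without the first or the third library of day 4.

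**Figure D5:**
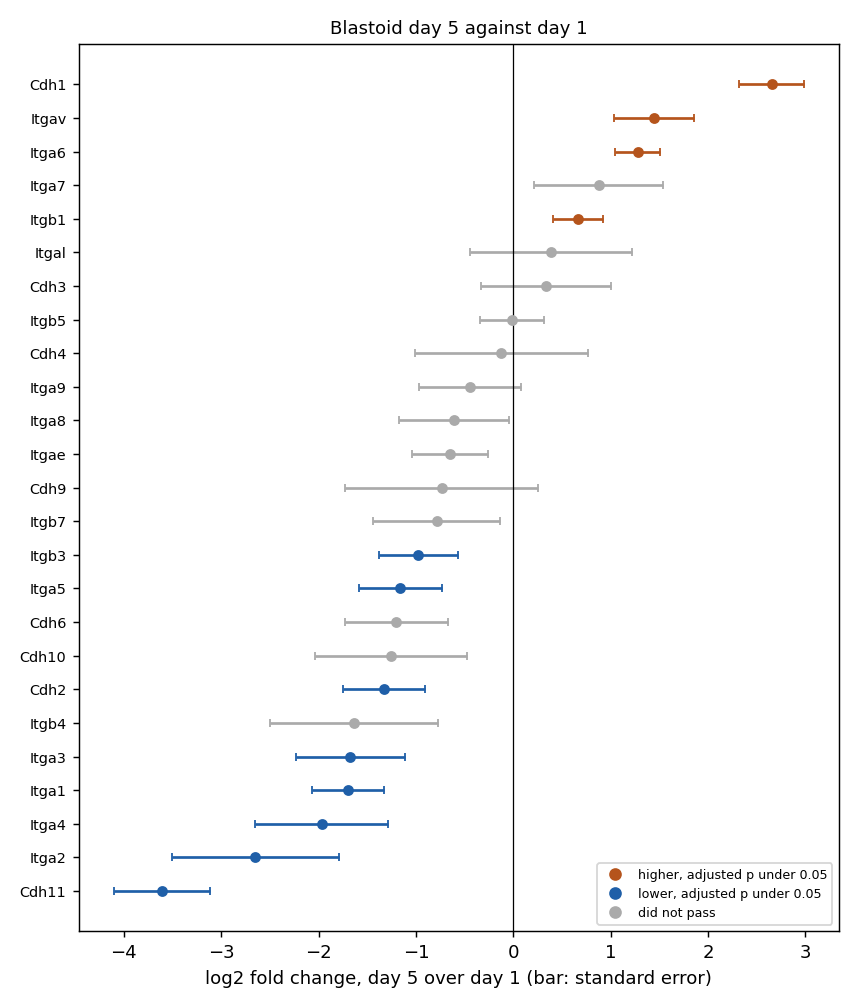
Log2 fold change of blastoid day 5 over day 1 (3 libraries each) with standard errors as bars for 25 of the 27 tested members; Itgam and Itgb6, with 2 and 0 counts on day 1, are left out. Cdh1 stands highest at 2.65 and Cdh11 lowest at -3.61.

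Low counts of Itgb6 and Itgam were gained on day 5. Both genes passed the filter of the blastoid fit only through day 5, where they were high. Their tests are therefore not read as support, and they are described by counts. Itgb6 held 11, 8 and 15 counts on day 5, against 0 in all libraries of days 1 and 4. With the lower group set to that floor of 3 counts, this is at least 15.8-fold higher than on day 1 and at least 18.1-fold higher than on day 4. Its partner Itgav was higher on day 5 too. Itgam held 23, 17 and 9 counts on day 5, against 1, 0 and 1 on day 1, a ratio of 34.1 (95% counting interval 8.94 to 289), and 0, 1 and 0 on day 4. The leukocyte gene Ptprc was at 2, 0 and 0 counts on day 5, Pf4 was at 0, and Csf1r held 3, 10 and 19. The 6 leukocyte and platelet markers summed to 1.25 to 3.98 CPM on day 5, against 2.82 to 44.3 CPM on day 1. Pf4 alone was at 40.4, 0 and 8.46 CPM on day 1, so the upper end of that range is mostly Pf4. Exons of Itgam overlap those of Gm49368, so its counts are uncertain. Itgb2, with which Itgam pairs in leukocytes, held 0 counts in each library of day 5.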

How the data were processed

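The authors deposited 2 tables of raw read counts by gene symbol, 1 for 2D culture and 1 for blastoids. STAR 2.7.10b, HTSeq 0.13.5 and the build mm10 are named in the submitters' processing notes, and the labels' protocols give Smart-seq2, a PCR-based cDNA method without molecular identifiers. Neither annotation release nor strand setting is stated there, so overlapping genes are uncertain. Gene coordinates, exon lengths and GC content come from GENCODE M21 (GRCm38), in which 53663 symbols matched 1 gene, 112 several and 577 none.

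Counts were tested with edgeR 4.0.16 (TMM scaling, robust dispersions, quasi-likelihood F-test, genes filtered by filterByExpr at min.count 10 and min.total.count 15) in R 4.3.3, on the 4 libraries of 2D culture, the 15 blastoid libraries, and all 19 libraries for day 1 against PlaB. Log2 fold changes come from these fits, and levels from scaling all 19 libraries together. The prior count for correlations was 2. Members and gene lists were chosen with earlier results of these data known, and lists are described by counts. Members with a mean of at least 10 CPM in a group (16) are given by library, others where they pass a comparison, and up to 4 genes of each list by smallest adjusted p, plus a few named beside them for their role. The scripts were tested on simulated data. Between libraries of a group the spread exceeded sampling noise, the chi-square over genes divided by its degrees of freedom being 4.24 to 90.5, so none was counted as a repeat. Alternatives were RLE size factors, total counts, no filter, DESeq2 1.42.0, a replicate block, a removed GC trend and leaving out each library.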

Additional observations from a re-analysis of the deposited data

How the results depend on the processing

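Of 66 member calls, each refitted in 10 to 12 alternative settings (758 values), 626 values kept direction and call, 131 kept direction and lost the call, and 1 reversed: Itgav in PlaB against control, 0.0018 on the log2 scale (adjusted p = 0.99) with the GC trend removed. In 33 of the 66 the call held in every setting run. The cause of the changes was not tested. Where the count of members moved: day 1 against PlaB, higher, 4 with total counts, 2 without filter and 0 with the GC trend removed (1 as reported); day 2 against day 1, higher, 0 with RLE size factors, total counts, the replicate block or the GC trend removed; day 2 against day 1, lower, 2 with RLE or without filter, 3 with total counts or DESeq2, and 0 with the replicate block or the GC trend removed, which left 613 genes called of 1052. On day 3 against day 2, higher members were 2 with the replicate block and lower members 1 with the GC trend removed. On day 4 against day 3, higher members were 0 with the GC trend removed. On day 5 against day 4, higher members were 3 with total counts, and lower members 1 with RLE, the replicate block or the GC trend removed. Krt8-following members were 0 at a correlation of at least 0.7.

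Leaving out 1 library gave, for members higher, 0 to 3 (day 1 against PlaB), 0 to 0 (day 2 against day 1), 1 to 4 (day 3 against day 2), 2 to 3 (day 4 against day 3) and 3 to 6 (day 5 against day 4). For members lower it gave 0 to 2 (day 2 against day 1), 1 to 4 (day 3 against day 2), 5 to 9 (day 4 against day 3), 1 to 2 (day 5 against day 4) and 4 to 9 (day 5 against day 1). For all genes called it gave 3811 to 5966 (day 1 against PlaB), 426 to 1490 (day 2 against day 1), 1883 to 4669 (day 3 against day 2), 2549 to 4591 (day 4 against day 3) and 2876 to 4367 (day 5 against day 4). A 2D group with 1 library left was assumed to vary like the others. The replicate block rests on shared numbers only: same-numbered libraries had correlations of deviations of -0.01 in 2D and from -0.25 to 0.17 in blastoids, over 0.1 in 2 of 30 pairs. Deviations were taken from group means, which ties the libraries of a group to each other and makes those of a 2D group mirror images. Whether the numbers pair the libraries thus cannot be decided from these values.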
